A study of Mus musculus with 19 samples.

Results

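The 7 genes described here encode the chemokines Ccl2, Ccl3, Ccl4 and Cxcl10 and the cytokines Tnf, Il1a and Il1b, and they were chosen by name as the chemokine and cytokine genes of microglia and other glia. The dissociation table, which sets a conventional cell dissociation beside Act-Seq, held all 7 among 15299 genes. The first table, which holds the Act-Seq libraries of naive and stimulated mice, held 5 of them among 16233 genes, and Tnf and Il1b were analysed in the dissociation table alone.

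Drop-seq, which captures single cells in droplets with barcoded beads and counts transcripts by unique molecular identifiers (UMIs), had been run on medial amygdala of male C57BL/6J mice. Act-Seq is a dissociation protocol that blocks new transcription while the tissue is taken apart. Groups dissociated with Act-Seq were naive mice (6 libraries, 8 weeks), saline-injected controls (1 library, 8 weeks), seizure-affected mice (2 libraries, 9 and 8 weeks), mice acutely stressed by immobilization (4 libraries, 8 or 9 weeks) and mice exposed to odors (4 libraries, 8 or 9 weeks). Conventional dissociation gave 1 library of saline-injected controls and 1 of seizure-affected mice, both at 8 weeks. The labels name neither the agent that caused the seizures nor the odors, and they state that the odor libraries served cell typing and not the comparison of activity genes. Nothing in the labels ties a library to its own animal or animals, and p-values therefore speak only to differences from library to library, part of which can be technical. Libraries of the first table held 43 to 2189 cells and 116492 to 3723521 UMIs, and in the dissociation table they held 1123 to 2010 cells and 2102364 to 4309887 UMIs.

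Microglia are the resident macrophages of the brain. When they sense damage or microbial products, receptors on their surface activate transcription factors of the NF-kappaB and AP-1 families, which switch on genes for secreted signals within minutes to hours. Chemokines draw in other leukocytes through G protein-coupled receptors, while Tnf and the interleukin-1 cytokines act on glia, vessels and neurons through receptors of their own. Because the transcripts are made so quickly, they are also known to be induced by the handling of tissue after death.

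In the mouse annotation (GENCODE vM21, GRCm38, the same assembly as the mm10 that the submitters' processing notes name), Ccl2 spans chr11:82035571-82037453 on the plus strand. Ccl3 spans chr11:83647844-83649355 on the minus strand and Ccl4 chr11:83662584-83664683 on the plus strand, so that this pair lies head to head with 13229 bases between the starts. Cxcl10 lies at chr5:92346638-92348889 and Tnf at chr17:35199381-35202007, both on the minus strand. Il1a, at chr2:129299610-129309972, and Il1b, at chr2:129364570-129371139, are neighbours on the minus strand, 54598 bases apart. Opposite-strand genes overlap Ccl2 (Gm17268), Cxcl10 (Art3), Il1a (Gm14023) and Il1b (Il1bos), and since no source used here says if reads were counted by strand, reads of these pairs cannot be told apart.

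The RefSeq promoter table (GRCm38.p6) matched 5 of the 7 members: Ccl3, Cxcl10, Tnf, Il1a and Il1b. The 250 bases before the annotated start are printed for a member with a high level in the conventional libraries (Ccl3) and for the 2 members with a match to a searched motif (Cxcl10 and Il1a), each 5′ to 3′ on the gene's own strand. Capitals mark a match to the AP-1 motif TGANTCA.
Ccl3, chr11:83649379-83649628, minus strand: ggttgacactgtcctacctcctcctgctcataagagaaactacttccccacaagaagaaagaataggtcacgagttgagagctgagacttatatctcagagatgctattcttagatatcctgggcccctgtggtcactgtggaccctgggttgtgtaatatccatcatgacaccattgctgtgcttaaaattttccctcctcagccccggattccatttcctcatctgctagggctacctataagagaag
Cxcl10, chr5:92348890-92349139, minus strand: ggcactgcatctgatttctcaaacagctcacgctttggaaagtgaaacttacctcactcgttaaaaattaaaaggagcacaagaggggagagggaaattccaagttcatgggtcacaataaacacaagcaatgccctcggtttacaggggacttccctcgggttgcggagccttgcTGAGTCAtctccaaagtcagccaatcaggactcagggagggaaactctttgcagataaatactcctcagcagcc
Il1a, chr2:129309973-129310222, minus strand: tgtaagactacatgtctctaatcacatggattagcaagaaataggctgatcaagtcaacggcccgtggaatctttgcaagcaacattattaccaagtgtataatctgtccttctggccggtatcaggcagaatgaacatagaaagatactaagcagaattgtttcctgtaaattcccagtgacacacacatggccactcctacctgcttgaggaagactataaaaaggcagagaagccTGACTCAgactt
On both strands, the letters TGANTCA occurred in 2 of the 5 windows, those of Cxcl10 (68 to 74 bases before the start) and Il1a (6 to 12 bases before it), and in 6.75% of 32851 RefSeq promoter windows of the same length. The cyclic AMP response element TGACGTCA, held by 1.55% of all windows, occurred in none of the 5. The wider consensus of NF-kappaB sites, searched after the windows had been read, was held by 7.25% of all windows and by 1 of the 5, that of Cxcl10. It matched there 150 to 159 bases before the start and at 2 overlapping places, 95 to 104 and 94 to 103 bases before it. A narrower form of the site, held by 1.41% of all windows, occurred in none. A match describes letters and is not a shown binding site, and a missing match says only that these letters are not in this window.

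Barcodes and content were compared before any result. The conventional saline library and seizure library 1 shared 1115 cell barcodes, while no other pair of the dissociation table shared more than 1 and no pair of the first table more than 2. All 2900 Act-Seq seizure cells of the dissociation table had identical counts in the first table under the same library, though none under the same barcode. The labels of the saline Act-Seq library and of both conventional libraries could not be checked in this way. Cells were clustered without 112 genes (the members, the listed genes and immediate early genes), and the cluster called microglia-like (767 cells) was led by Selplg, Cx3cr1, P2ry12 and Siglech. All 265 of its cells that could be matched to the first table carried the authors' microglia class.

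**Figure D1:**
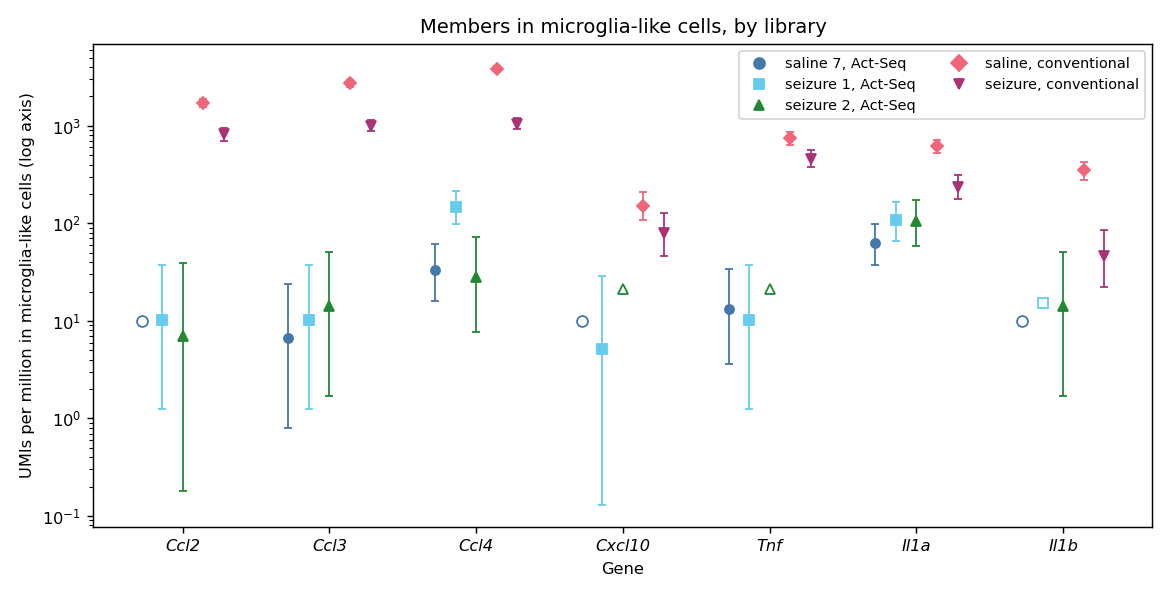
Level of each gene in CPM of microglia-like cells (log axis) in the 5 libraries of the dissociation table; bars are 95% Poisson intervals, which cover counting error only, and open symbols stand at 3 UMIs where a library held none. Both conventional libraries lie above all 3 Act-Seq libraries for all 7 genes. The share of all genes that separate in this way was not computed. The intervals overlap for Il1b alone, at 46.5 in the conventional seizure library and 14.1 in seizure 2.

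Conventional dissociation gave more transcript of every member in microglia-like cells. Levels are given as CPM, a gene's UMIs scaled to a fixed total of the UMIs of the same cells, and intervals in these paragraphs are 95% counting intervals, which do not hold the spread between animals. In 178 cells of the conventional saline library the 7 genes together took 2532 of 249233 UMIs, and in 194 cells of the saline Act-Seq library they took 35 of 302556. After seizure the conventional library held 797 member UMIs in 130 cells, against 57 in 152 cells and 24 in 113 cells of the Act-Seq libraries. The order of the 5 libraries by summed level was the conventional saline library at 10159 CPM, the conventional seizure library at 3710, then seizure 1 at 293, seizure 2 at 169 and saline at 116.

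Ccl2, which recruits monocytes through Ccr2, stood at 0, 10.3 and 7.06 CPM in saline, seizure 1 and seizure 2 by Act-Seq, and at 1709 and 824 in the conventional saline and seizure libraries. The Act-Seq values rest on 0, 2 and 1 UMIs, and the conventional ones on 426 and 177. Between the saline libraries Ccl2 was at least 172-fold higher by conventional dissociation, with the Act-Seq library set at 3 UMIs. Between the seizure libraries it was 92.4-fold higher (95% counting interval 31.1 to 452).

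Ccl3, a chemokine that draws in monocytes and other leukocytes, stood at 6.61, 10.3 and 14.1 CPM in the Act-Seq libraries in the same order, and at 2724 and 1005 in the conventional ones. Its relative Ccl4, a chemokine of the same family, had the highest level of the 7 in both conventional libraries, at 3864 and 1057 CPM. Ccl4 was also the chemokine best seen by Act-Seq, at 33.1, 149 and 28.2. The groups by dissociation did not overlap for either gene, and the share of all genes that separate in this way was not computed. For Ccl4 the ratio of conventional to Act-Seq was 117-fold in saline (63.3 to 245) and 10.8-fold after seizure (7.46 to 16.03).

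Cxcl10, an interferon-inducible ligand of Cxcr3, was the rarest chemokine in these cells. Its levels were 0, 5.13 and 0 CPM by Act-Seq and 152 and 79.1 by conventional dissociation. The conventional values came from 38 UMIs in 9 cells and 17 UMIs in 4 cells, so that few cells carried the transcript in any library. Of these UMIs, 24 of the 38 and 9 of the 17 lay in 1 cell each.

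Tnf, the founding cytokine of its family and a driver of NF-kappaB signalling, stood at 13.2, 10.3 and 0 CPM by Act-Seq and at 742 and 461 by conventional dissociation. Il1a, which is held in the cell as an active precursor, was found in more cells than any other member in each Act-Seq library, at levels of 62.8, 108 and 106 CPM, and it reached 618 and 237 in the conventional libraries. Its ratio was 9.84-fold in saline (6.09 to 16.8) and 2.22-fold after seizure (1.42 to 3.50), the smallest of the 7 in both. Il1b, whose precursor is cut by caspase-1, stood at 0, 0 and 14.1 by Act-Seq and at 349 and 46.5 by conventional dissociation. In 1 cell each lay 33 of its 87 UMIs in conventional saline and 6 of its 10 in conventional seizure.

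With additive terms for dissociation and seizure over the 5 libraries (2 residual degrees of freedom), edgeR's quasi-likelihood test with Benjamini-Hochberg adjustment called all 7 members higher by conventional dissociation, where 3.74% of the 4704 genes tested were called. The log2 fold changes were 8.00 for Ccl2 (SE 0.39, adjusted p = 1.24e-26), 7.62 for Ccl3 (SE 0.34, adjusted p = 5.95e-29) and 5.02 for Ccl4 (SE 0.33, adjusted p = 3.82e-20). They were 5.87 for Cxcl10 (SE 0.77, adjusted p = 1.66e-08), 6.06 for Tnf (SE 0.38, adjusted p = 2.51e-21), 2.31 for Il1a (SE 0.31, adjusted p = 2.11e-08) and 5.79 for Il1b (SE 0.62, adjusted p = 2.14e-11). The test borrows the spread of other genes, so p-values this small do not come from the 2 residual degrees of freedom of each gene alone. Members at or near 0 by Act-Seq passed the filter on low counts through the conventional libraries, where they were high, so the count adds nothing to the values above; with no filter all 7 were called too. Without the conventional saline library 4 of 6 tested members were called, with Cxcl10 at 4.63 (adjusted p = 0.560) and Il1a at 1.28 (adjusted p = 0.0730) no longer among them. Without the saline Act-Seq library 5 were called. Under DESeq2 6 were called, without Il1b. Dissociation and library preparation cannot be told apart with 1 conventional library in each treatment.

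**Figure D2:**
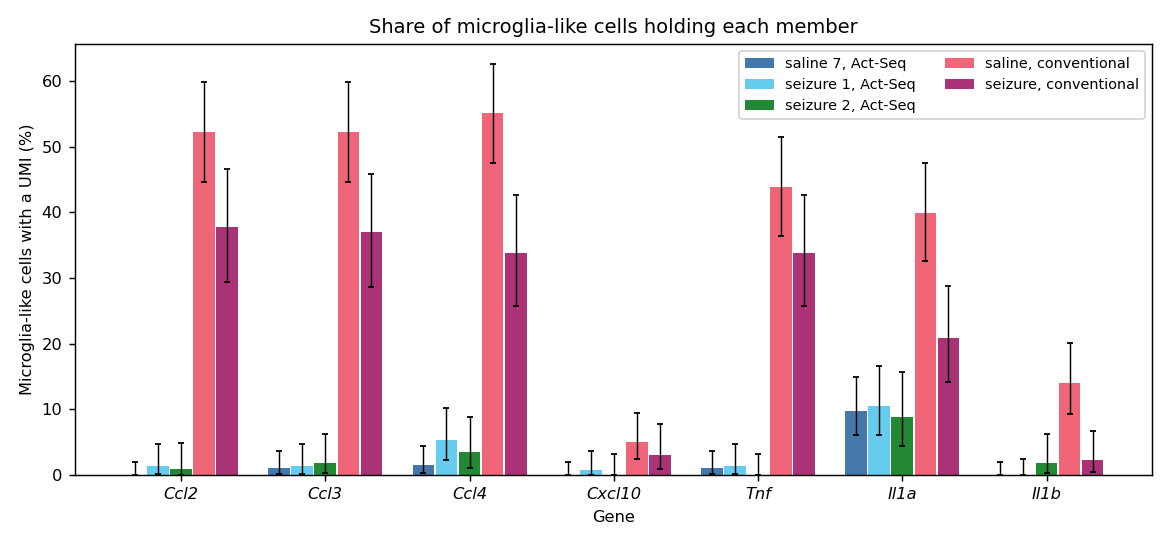
Share of microglia-like cells with at least 1 UMI of each gene (%) in the 5 libraries, with exact 95% binomial intervals that cover counting error only. For Ccl2, Ccl3 and Ccl4 the conventional saline bars stand at 52.2%, 52.2% and 55.1% and the Act-Seq bars at or below 5.26%.

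More cells held the transcripts, and each such cell held more of them. In the conventional saline library Ccl2 and Ccl3 each had a UMI in 93 of 178 microglia-like cells (52.2%, exact 95% interval 44.6 to 59.8) and Ccl4 in 98 (55.1%). Tnf was seen in 43.8%, Il1a in 39.9%, Il1b in 14.04% and Cxcl10 in 5.06% of these cells. In the conventional seizure library the shares were 37.7% for Ccl2, 36.9% for Ccl3, 33.8% for Ccl4, 33.8% for Tnf, 20.8% for Il1a, 3.08% for Cxcl10 and 2.31% for Il1b. By Act-Seq no chemokine, Tnf or Il1b was seen in over 5.26% of microglia-like cells, and Il1a was seen in 9.79%, 10.5% and 8.85%.

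Depth overlapped between the protocols: the median UMIs per microglia-like cell were 1458, 1123 and 1112 by Act-Seq and 1336.5 and 1511.5 by conventional dissociation. After every cell was thinned to 600 UMIs the shares in the conventional saline library were 40.0% for Ccl2, 43.8% for Ccl3 and 48.8% for Ccl4, against at most 0.488%, 0.759% and 3.56% by Act-Seq. Free RNA is known to put UMIs into cells that do not express a gene. In the same conventional library neuron-like cells, with a median of 2109 UMIs, held Ccl2 in 0.414%, Ccl3 in 2.07% and Ccl4 in 1.66% of 483 cells. Oligodendrocyte-like cells held Ccl4 in 1.01% of 298, and 112 endothelial-like cells held 27 Ccl4 UMIs. The part of free RNA in these shares was not tested.

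Most microglia-like cells of the conventional libraries that held one member held others too. In the conventional saline library 164 of 178 microglia-like cells (92.1%) had a UMI of at least 1 member, 92 (51.7%) of at least 3 and 9 (5.06%) of at least 6. In the conventional seizure library 98 of 130 (75.4%) had at least 1 and 36 (27.7%) at least 3. By Act-Seq 13.4% of saline cells and 16.4% and 15.9% of seizure cells had at least 1, and a single cell in the 3 libraries had 3. Ccl3 and Ccl4 often lay in the same cells: in the conventional saline library 76.3% of cells with Ccl3 also held Ccl4, against 31.8% of cells without Ccl3, and after seizure 68.8% against 13.4%. For Ccl2 and Ccl3 the shares lay closer: 58.1% of saline cells with Ccl2 held Ccl3 against 45.9% without, and after seizure 38.8% against 35.8%. These shares describe 2 libraries, and deeper cells hold more of every gene: median UMIs were 1380 in saline cells with a member and 1042.5 in those without.

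**Figure D3:**
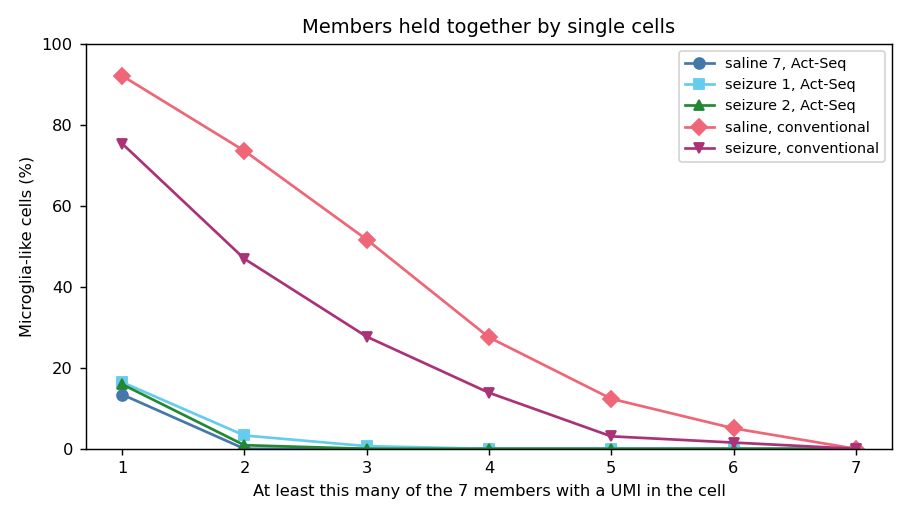
Share of microglia-like cells (%) with UMIs of at least the given number of the 7 genes, 1 line per library of the dissociation table. The conventional saline line falls from 92.1% at 1 gene to 51.7% at 3, and the 3 Act-Seq lines start between 13.4% and 16.4% and are near 0 from 2 genes on.

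Seizure against saline was read in the same fit. In conventional libraries every member was lower after seizure. Ratios lay between 0.133 for Il1b (counting interval 0.0618 to 0.257) and 0.621 for Tnf (0.481 to 0.797). Ccl2 stood at 0.482 and Ccl4 at 0.273 of the saline level. The Il1b ratio rests in part on 1 cell, which held 33 of the 87 UMIs of conventional saline. In Act-Seq libraries the seizure libraries lay on both sides of saline for Ccl4, at 149 CPM in seizure 1, where 18 of 29 UMIs came from 1 cell, and at 28.2 in seizure 2, against 33.1. Pooled over both, the ratio to saline was 2.97 for Ccl4 (1.43 to 6.75), which rests on seizure 1, and 1.70 for Il1a (0.952 to 3.14). The additive fit called 2 of 7 members lower after seizure, Ccl3 at a log2 of -1.39 (SE 0.28, adjusted p = 0.00316) and Il1b at -2.62 (SE 0.50, adjusted p = 0.00130), where edgeR called 0.319% of all genes tested. Both calls rest on the conventional pair: without the conventional saline library Ccl3 stood at 0.78 (adjusted p = 0.9999) and Il1b was not tested, and without the conventional seizure library they stood at 0.79 and 3.48 (adjusted p = 0.9985 for both). Without the saline Act-Seq library 5 members were called lower. DESeq2 called none of the 7. Of the 27 dissociation response genes tested, Rgs1 was higher after seizure (1.67) and Atf3 (-1.39) and Cd83 (-1.34) were lower.

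Related gene lists were read in microglia-like cells beside the members, whose median log2 fold change by conventional dissociation was 5.87 against -0.0043 over all genes tested. Immediate early and heat shock genes known from dissociated tissue moved with them, 26 of 27 tested being called higher and none lower (median log2 4.52). Their most changed were Fosb at 8.87, Fos at 8.71, Egr1 at 8.49, Ier2 at 6.90 and Egr2 at 6.59. Of the genes of NF-kappaB signalling and the inflammasome 7 of 19 were higher and none lower (median 0.83). They included the inhibitors and feedback genes Nfkbiz at 6.01, Nfkbid at 5.21, Tnfaip3 at 3.37 and Nfkbia at 3.34, and the adhesion gene Icam1 at 2.44. Nfkbiz stands on both lists.

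Of 28 other chemokines and cytokines 9 passed the filter in microglia-like cells, and 2 of these were higher and none lower (median 0.30): Ccl12, another monocyte chemokine, at 2.79 and Osm, a cytokine of the interleukin-6 family, at 2.06. Of interferon response genes 1 of 4 was higher, Irf1 at 2.16 (median 0.80). Of the chemokine and cytokine receptors 0 of 4 tested were called by edgeR (median -0.49). The lists were chosen with earlier results of these data known, and the dissociation list was named for this response, so its direction is no independent evidence.

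The level of macrophage markers overlapped between the protocols. The 9 macrophage markers summed to 245, 370 and 339 CPM in microglia-like cells by Act-Seq and to 265 and 340 by conventional dissociation. In each library 4 to 8 of the 9 were at 0. Stab1 was the only marker above 0 in saline, seizure 2 and conventional seizure, so the sum there is that of 1 gene. The 15 microglia markers were all present in every library and summed to 79813, 71571 and 73490 CPM by Act-Seq and to 59146 and 62851 by conventional dissociation. Markers of neurons, astrocytes, mural cells and lymphocytes also separated the protocols. The 11 neuron markers summed to 132, 190 and 212 CPM by Act-Seq and to 690 and 307 by conventional dissociation, with 1 to 4 of them at 0 in each library. The 10 astrocyte markers summed to 1362, 970 and 755 CPM by Act-Seq and to 646 and 465 by conventional dissociation, with at most 3 at 0. Mural markers summed to 26.4, 35.9 and 7.06 CPM by Act-Seq and to 44.1 and 41.9 by conventional dissociation, on few UMIs. Lymphocyte markers summed to 304, 231 and 191 CPM by Act-Seq and to 181 and 149 by conventional dissociation. Only 3 of the 11 listed lymphocyte markers were in the dissociation table, and Trbc2 was at 0 in each library. The part of these marker levels in the result was not tested. Without cells that held a UMI of another immune cell type's marker, Stab1 included, 5 members were tested and all 5 were called higher by conventional dissociation.

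Over all cells, conventional dissociation was called higher for 6 of 7 members by edgeR, where 16.8% of 13607 genes were called in either direction. Ccl3 stood at a log2 of 6.04 (SE 0.34, adjusted p = 1.03e-04) and Tnf at 5.89 (SE 0.40, adjusted p = 1.51e-04). Ccl4 was at 4.85, Il1b at 4.98, Ccl2 at 4.26 and Il1a at 2.03, and Cxcl10 at 0.91 (adjusted p = 0.214). Without the conventional saline library 3 of the 7 were called. Of the other chemokines and cytokines 6 of 21 tested were higher over all cells and 2 lower. They included Cxcl2, a neutrophil chemokine, at 6.35, above every member, and Ccl7, a monocyte chemokine, at 2.62; both are named because of their values. A change in summed cells cannot by itself tell more microglia from more transcript per cell. Microglia-like cells were 194 of 2010, 152 of 1777 and 113 of 1123 cells in saline, seizure 1 and seizure 2 by Act-Seq. By conventional dissociation they were 178 of 1880 cells in saline and 130 of 1281 after seizure. The part of these cell numbers in the summed change was not tested.

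Summed over the libraries of the dissociation table, microglia-like cells held 95.4% of Ccl4, 95.4% of Tnf and 95.6% of Il1a UMIs. For Ccl3 the share was 88.6%, for Il1b 86.8% and for Ccl2 78.6%. These shares rest mostly on the conventional libraries. By Act-Seq microglia-like cells held 2 of 7, 2 of 3 and 2 of 7 Ccl3 UMIs in saline, seizure 1 and seizure 2. Of Ccl2 they held 2 of 4 in seizure 1 and 1 of 43 in seizure 2. Ccl4 and Il1a lay mostly in these cells by Act-Seq too. The next holder of Ccl2 was a cluster of 53 cells led by Dcn, Pf4 and Mrc1, genes of fibroblasts and border macrophages, which was left unnamed because markers of more than 1 type stood among its 10 leading genes. Of its 8 cells matched to the first table, 6 carried the authors' mural class. It held 68 Ccl2 UMIs in 16 conventional saline cells and 42 in 11 conventional seizure cells, 0 in 18 saline Act-Seq cells and 41 in 6 cells of seizure 2, of which 39 came from 1 cell. Ccl3 in that cluster was 31 and 23 UMIs in the conventional libraries and 0 in each Act-Seq library. Cxcl10 differed from the other members: 56.2% of its 153 UMIs lay in an unnamed cluster of 188 cells led by Myoc and Gfap, of which 81 of 85 matched cells carried the authors' astrocyte class. There it reached 237 CPM in saline and 180 and 85.1 in the seizure libraries by Act-Seq. It stood at 510 in the conventional seizure library and at 0 in the 12 conventional saline cells. Single cells held 20 of 29 UMIs in saline, 21 of 21 in seizure 1 and 18 of 30 in conventional seizure. All 38 Cxcl10 UMIs of the conventional saline library lay in microglia-like cells. Outside microglia-like cells no member passed the filter in any fitted type, so they were read as values; with no filter 1 of 26 pairs was called.

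In the first table, where cells carry the authors' classes, the 5 members were held by different cells. Microglia held 107 of 111 Ccl4 UMIs, 150 of 162 Il1a UMIs and 33 of 61 Ccl3 UMIs. The authors' mural class held 110 of 126 Ccl2 UMIs, with 39, 33 and 30 of them in 1 cell each, and astrocytes held 93 of 112 Cxcl10 UMIs. In the dissociation table mural-like cells, led by Acta2 and Tagln, held 0 Ccl2 UMIs in all 5 libraries (13 to 43 cells each), and the 41 UMIs of seizure 2 lay in the Dcn, Pf4 and Mrc1 cluster. Several of these sums came from single cells.

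**Figure D4:**
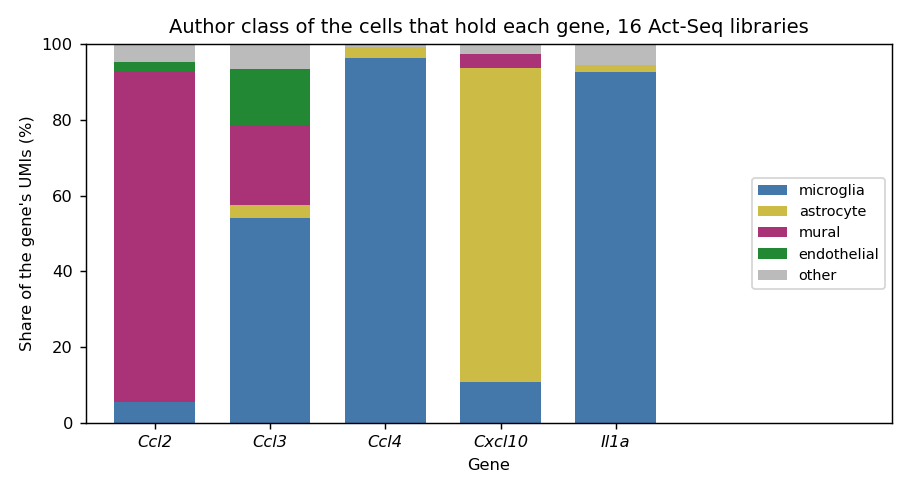
Share of each gene's UMIs (%) by the authors' class of the cell, over all 16 Act-Seq libraries of the first table. Ccl4 and Il1a lie in microglia, Ccl2 in the authors' mural class (87.3%) and Cxcl10 in astrocytes (83.0%), while Ccl3 is spread over microglia, mural and endothelial cells.

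In microglia of Act-Seq libraries only Ccl4 and Il1a passed the filter on low counts. Ccl2 and Cxcl10 were at 0 in all 5 naive libraries with at least 10 microglia. The seizure, immobilization and odor comparisons share the naive libraries, so the 3 are not independent. Naive library 6 held 4 microglia and entered no fit.

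Ccl4 stood at 111, 8.01, 204, 0 and 0 CPM in naive libraries 1 to 5. It stood at 124 and 23.7 after seizure, at 3.39, 0, 0 and 0 after immobilization, and at 13.7, 0, 21.9 and 0 after odor. The naive range enclosed all of the others, and the naive level came from few cells: 31 of the 32 UMIs of naive 3 and 23 of the 31 of naive 1 lay in 1 cell each. In all, 6 of 623 naive microglia and 1 of 563 after immobilization held a Ccl4 UMI. Means were 64.6 ± 91.1 CPM (SD, n = 5) in naive libraries and 0.848 ± 1.70 (SD, n = 4) after immobilization. In the fit over 15 libraries edgeR's quasi-likelihood test called Ccl4 lower after immobilization, at a log2 of -5.21 (SE 1.00, adjusted p = 5.34e-04), the single member called there, where 1.46% of 6499 genes were called. DESeq2 did not call it (-4.90, adjusted p = 0.418), and without cells that hold markers of other immune cells it fell below the filter.

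After seizure neither Ccl4 (log2 0.10, SE 0.59, adjusted p = 0.989) nor Il1a (0.83, SE 0.40, adjusted p = 0.837) was called in microglia, where edgeR called 0.431% of genes. After odor neither was called by edgeR (Ccl4 at -2.68, SE 0.70, adjusted p = 0.215; Il1a at 0.04, SE 0.38), where 0.0923% of genes were called. Ccl4 was called after odor without naive library 2 (-3.05, adjusted p = 0.0202), without naive library 4 (-2.95, adjusted p = 0.0318) and with no filter (-2.67, adjusted p = 6.20e-04).

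Il1a was the member with the most even spread over cells. It stood at 85.6, 44.1, 51.1, 55.3 and 0 CPM in naive libraries 1 to 5 and at 89.6 and 112.5 after seizure, both above naive libraries 1 to 5. It stood at 27.2, 17.0, 28.0 and 0 after immobilization and at 82.4, 30.1, 61.4 and 84.2 after odor. Every value after immobilization was below each naive library but naive 5, whose 35 microglia held none, and the log2 fold change was -1.30 (SE 0.45, adjusted p = 0.185 by edgeR). Neither seizure nor immobilization was called for Il1a, and the share of all genes ordered in these ways was not computed. No library held over 3 Il1a UMIs in 1 microglial cell.

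Ccl3 in microglia was 39.2, 12.0, 31.9, 7.90 and 0 CPM in naive libraries 1 to 5, 8.54 and 17.8 after seizure, 0, 4.25, 0 and 0 after immobilization, and 13.7, 17.2, 0 and 0 after odor. Of the 11 UMIs of naive 1, 10 lay in 1 cell. Ccl2 was held by 3 microglia after seizure and 3 after odor, with 1 or 2 UMIs each. Cxcl10 was at 47.3 in odor 2, from 11 UMIs in 2 cells, at 4.27 in seizure 1 and at 0 in all other libraries.

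**Figure D5:**
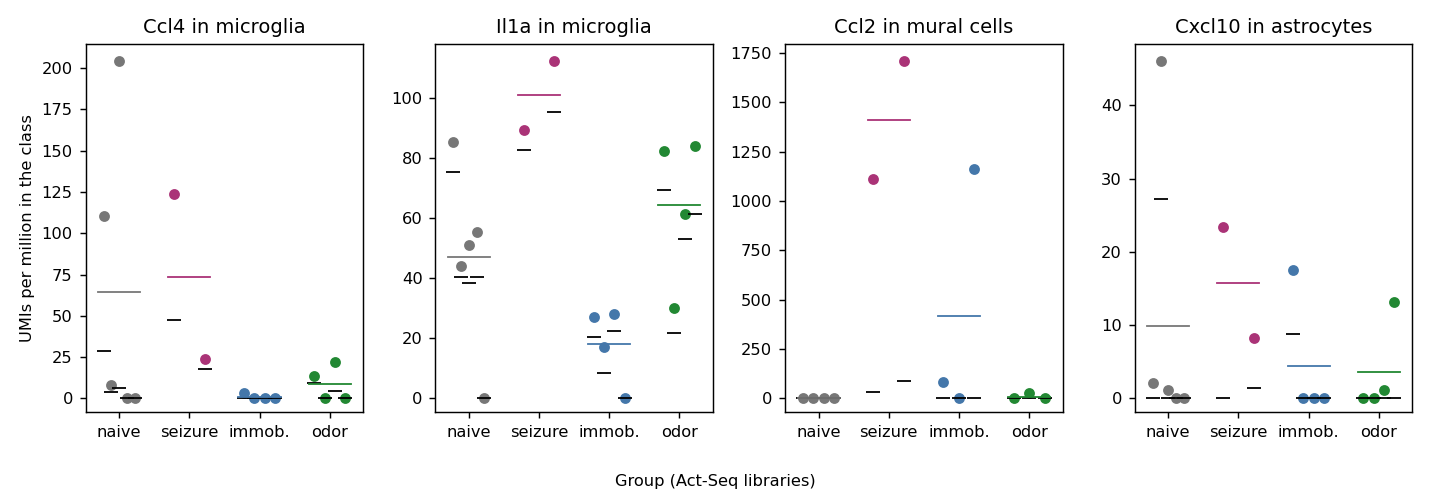
CPM of Ccl4 and Il1a in microglia, Ccl2 in mural cells and Cxcl10 in astrocytes, 1 point per Act-Seq library with at least 10 cells of the class; coloured lines are group means and black dashes show each library without its highest cell. Ccl2 in mural cells falls from 1114 and 1711 after seizure to 33.7 and 87.2 once 1 cell is left out.

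Outside microglia only Ccl2 in mural cells and Cxcl10 in astrocytes passed the filter, and 1 of their 6 comparisons with naive was called. Ccl2 in the authors' mural class stood at 0 in all 4 naive libraries, at 1114 and 1711 CPM after seizure, at 81.1, 0 and 1164 after immobilization and at 0, 26.4 and 0 after odor. It was called higher after seizure by edgeR (log2 8.69, SE 1.57, adjusted p = 0.00829), where 0.686% of 1020 genes were called. Since every naive library was at 0, this fold depends on the prior count, and the gene passed the filter through the groups where it was high. In each seizure library nearly all of it came from 1 cell, which held 33 of 34 UMIs and 39 of 41. The cell of seizure 2 is among those in the Dcn, Pf4 and Mrc1 cluster of the dissociation table. DESeq2 did not call it (adjusted p = 0.287). After immobilization the log2 was 6.51 (SE 1.89, adjusted p = 0.579), with 30 UMIs from 1 cell, and after odor 1.94; edgeR called 0.0% of the genes in both, 38 and 89 genes had an unadjusted p under 0.05, and DESeq2 called 0 and 1.

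Cxcl10 in astrocytes was 2.10, 46.1, 1.19, 0 and 0 CPM in naive libraries 1 to 5, 23.3 and 8.22 after seizure, 17.5, 0, 0 and 0 after immobilization, and 0, 0, 1.11 and 13.1 after odor. All 21 UMIs of seizure 1 lay in 1 of 514 astrocytes, and the 34 of naive 2 in 5 of 453. The groups overlapped, and edgeR called it in no comparison (log2 0.52 after seizure, -0.98 after immobilization and -3.05 after odor; adjusted p = 0.978, 0.802 and 0.385), where 0.466%, 1.51% and 0.656% of 10520 genes were called.

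Other immune markers were present in the authors' microglia class at low level. The 9 macrophage markers summed to between 339 and 984 CPM in naive libraries, 405 and 575 after seizure, between 576 and 2067 after immobilization and between 381 and 1359 after odor, while microglia markers summed to between 60236 and 75586. Of the 11 lymphocyte markers, 5 were in the first table. They summed to between 211 and 382 CPM in naive libraries and to 239 and 255 after seizure. After immobilization they stood at 187, 136, 168 and 352, and after odor between 142 and 386. In the dissociation table a cluster led by Trbc2 and Gimap4 was left unnamed. Of its 28 matched cells, 15 carried the authors' microglia class. The part of such cells in the levels of the members was not tested. Without cells that held a UMI of another immune cell type's marker, Stab1 included, Ccl4 no longer passed the filter. With the same cells left out, Il1a stood at a log2 of -0.85 after immobilization, 0.91 after seizure and -0.36 after odor, none of them called by edgeR (adjusted p = 0.797, 0.939 and 0.962).

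Of the related lists in microglia, the genes of NF-kappaB signalling and the inflammasome had 1 of 18 higher after seizure, Nfkbia at a log2 of 2.31. After immobilization 1 was higher, Nfkbia at 1.79, and 1 lower, Gpr84 at -1.16. Of the dissociation list 3 of 15 were higher after seizure (Dusp1 at 5.53, Rgs1 at 2.35 and Btg2 at 1.23), and after immobilization 2 were higher (Dusp1 at 4.30 and Rgs1 at 2.33) and 2 lower (Jun at -1.09 and Ier5 at -1.08). Of other chemokines and cytokines 1 of 11 was lower after immobilization, Ccl5 at -4.92. Of receptors 0 of 4 and of interferon response genes 0 of 5 were called in any of the 3 comparisons, and after odor no gene of any list was.

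Across the 15 Act-Seq libraries with at least 10 microglia, the genes whose log2(CPM + 10) was most like that of the summed members were Atp7a (Pearson r = 0.91), Chchd5 (0.88), Tmem242 (0.87), Tmem47 (0.87) and Pwwp2a (0.86), the top 5 of 9229 genes with a mean of at least 10 CPM. The points share depth and group, and the likeness is a description.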

How the data were processed

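The authors deposited 3 tables of UMI counts, whole numbers by gene and by cell. Per the submitters' processing notes, bcl2fastq 2.17.1.14 and STAR 2.5.0a were used with mm10; no source used here names the counting tool, the cell filters or any doublet removal. The first table (20679 cells, 43 to 2189 per library) gives the authors' classes, and a table of neurons was used only to split the neuron class; the dissociation table (8071 cells, 1123 to 2010 per library) was clustered with scanpy 1.11.5 and Leiden at resolution 0.8, and clusters were named from marker lists. The naming rule was tightened after leading genes were seen. Counts were summed per library and class (at least 10 cells) and tested with edgeR 4.0.16 (TMM, filterByExpr, quasi-likelihood, adjusted p threshold 0.05); no doublet caller was run. Levels are CPM of the class. Intervals are exact (95%), and a count of 0 is set at 3 UMIs; both cover counting error only. The fits were tested on simulated data. Named genes were all 7 members and up to 5 called genes by size from each list. Members and lists were chosen with earlier results of these data known. DESeq2 1.42.0, size factors, filters and cell choices were alternatives.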

Additional observations from a re-analysis of the deposited data

Results flagged for a closer look

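Among 14 groups of 4 or 5 libraries examined in microglia, astrocytes and mural cells, 6 had a library far from the others. The cutoff flags about 1 in 20 groups of normally spread values, which these sparse counts are not. A group with UMIs in only 1 library is always flagged, so the count cannot be set against chance. This holds for every flag in microglia and for Cxcl10 in astrocytes after immobilization. Cxcl10 in astrocytes stood apart in naive 2 (46.1 CPM), immobilization 1 (17.5) and odor 4 (13.1). In microglia, Cxcl10 stood apart in odor 2 (47.3), Ccl3 in immobilization 2 (4.25) and Ccl4 in immobilization 1 (3.39); the last 2 are single UMIs. Naive 6 held 43 cells and entered no fit because it had fewer than 10 cells of each class. It had Cxcl10 at 473 CPM in astrocytes, from 8 UMIs in 1 of 7 cells, above every naive library that was fitted.

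In microglia-like cells the conventional seizure library was below the conventional saline library for Ccl2 (ratio 0.482), Ccl3 (0.369) and Il1a (0.384), while both Act-Seq seizure libraries were above the saline one. The Act-Seq values of saline, seizure 1 and seizure 2 rest on 0, 2 and 1 UMIs for Ccl2. For Ccl3 they rest on 2 UMIs in each library, so its order there reflects only the UMI totals of the cells. For Il1a they rest on 19, 21 and 15 UMIs. With 1 library in 3 of the 4 combinations the difference between the protocols was not tested.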

How the results depend on the processing

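Of the values of single members under other processing choices, 301 kept direction and side of the threshold, 14 newly passed it, 17 no longer did and 26 changed sign; of the counts of called members, 113 stayed within 1.5 times and 20 did not. For the changes below the cause was not tested.

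Under DESeq2 the count of called members went from 1 to 0 for immobilization in microglia, from 1 to 0 outside microglia and from 2 to 0 for seizure against saline in microglia-like cells, where Ccl2 (0.42) and Il1b (0.37) changed sign. With no filter it went from 0 to 1 for odor in microglia. It went from 1 to 3 outside microglia (57 tests over the comparisons with naive) and from 0 to 1 outside microglia-like cells. Without the 5% of cells with most UMIs it was 1 for odor and 1 for seizure against saline. Without cells holding markers of other immune cells it was 0 for immobilization, since Ccl4 was no longer tested. For seizure against saline it was 4 at a clustering resolution of 1.6 and 0 where cells were chosen by marker UMIs.

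Leaving out 1 library at a time, the count ranged from 0 to 1 for odor, from 4 to 7 for conventional dissociation in microglia-like cells, from 3 to 6 in all cells and from 0 to 5 for seizure against saline. For the last, the log2 ranged from -1.13 to 4.02 for Ccl2, -1.52 to 0.79 for Ccl3, -1.95 to 1.52 for Ccl4, -1.02 to 2.60 for Cxcl10, -1.46 to 0.75 for Il1a and -2.97 to 3.48 for Il1b, positive without a conventional library. Ccl4 after seizure in microglia (0.10) ranged from -1.57 to 0.91 and was -0.44 with age as a covariate and -0.016 without libraries under 300 cells. Il1a after odor (0.04) ranged from -0.23 to 0.40 and was -0.060 without those libraries. It was -0.11 without the cells with most UMIs and -0.36 without cells holding markers of other immune cells.

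With the replicate number as a block, the count for odor was 1 (Ccl4 at -3.08), Il1a after odor was -0.079, and no other call changed; the samples share only a number, since 0 of 18 same-numbered pairs correlated over 0.1 (-0.054 to 0.053). No paired analysis was possible because the conventional and Act-Seq groups of the dissociation table share fewer than 2 numbers. In microglia of the first table, members other than Ccl4 and Il1a rest on few UMIs.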
